A study of Mus musculus with 6 samples.

Results

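Transcript levels are given for 8 transcription factor genes linked to the proximal part of the pharyngeal arches and to the maxillary side of the face, in the distal mandible of E10.75 mouse embryos: Nr2f1, Nr2f2, Meis1, Meis2, Pbx2, Pou3f3, Emx2 and Gbx2. They were taken by symbol, and each had 1 row among the 21827 genes listed. RNA from this tissue, which forms the tip of the lower jaw, was sequenced in 6 embryos, with 1 embryo labelled mutant and 1 labelled control from each of 3 litters. Per the labels the mutants carry Msx1f/f;Msx2f/f;Rosa26mTmG/+;Hand2-Cre and the controls Msx1f/+;Msx2f/f;Rosa26mTmG/+;Hand2-Cre. The f alleles are floxed, which means that Cre recombinase can delete them. Both labels therefore share Hand2-Cre, which is active where Hand2 regulatory sequence drives it, both floxed copies of Msx2 and 1 copy of the mTmG reporter, whose green signal marks recombined cells and guided the dissection. No embryo with intact Msx genes is in the series, and the tissue was dissected without cell sorting, so each library also holds cells that Cre did not reach.

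The first arch is patterned along an axis from the proximal end at the jaw joint, with the maxillary prominence beside it, to the distal tip of the mandible. Endothelin signalling through Dlx5 and Dlx6 drives Hand2 distally, and proximal and maxillary mesenchyme instead uses other homeobox and nuclear receptor genes. Nr2f1 and Nr2f2 encode orphan nuclear receptors, which in zebrafish promote upper jaw identity. Meis1, Meis2 and Pbx2 encode TALE homeodomain proteins that bind DNA as partners of each other and of Hox proteins. Pou3f3 encodes a POU-domain factor that marks the maxillary and proximal arch. Emx2 and Gbx2 encode homeodomain factors best known from the forebrain and from the border of midbrain and hindbrain.

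Msx1, the gene whose floxed dose differs between the labels, did not follow them in every litter, so the littermates are also set side by side by their Msx1 level. One library of each litter was under 10 TPM for Msx1 (transcript abundance scaled for length and library, so that levels can be compared between genes) and its littermate was over 50 TPM. The low-Msx1 library was the library labelled mutant in litter 1, at 1.90 TPM, whereas its littermate labelled control had 84.1 TPM. In litters 2 and 3 the low-Msx1 library was the library labelled control, at 2.61 and 1.99 TPM, against 78.8 and 73.3 TPM in the libraries labelled mutant. Labels and Msx1 thus go the same way in litter 1 and opposite ways in litters 2 and 3. Because a measured value sets these names, values are given litter by litter, with no mean and no test over the low-Msx1 and high-Msx1 libraries. The Msx1 values themselves are no result here. The libraries listed between 716208 and 735601 TPM over all rows, and the number of reads behind them is unknown, so precision is judged from the spread between embryos.

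Of the 8 factors, 5 were expressed at more than 20 TPM in each library, 1 was expressed at a few TPM and 2 were close to 0. Meis2 was the highest in every library, at 91.6 to 134 TPM. Nr2f2 ranged from 36.5 to 92.1 TPM, Nr2f1 from 41.0 to 47.1 TPM and Pbx2 from 34.1 to 46.8 TPM. These ranges overlap, so the order of Nr2f2, Nr2f1 and Pbx2 differed between libraries, and the lowest Meis2 value lay just under the highest Nr2f2 value. Meis1 followed at 21.3 to 27.0 TPM, below every value of Pbx2, and Gbx2 at 3.08 to 8.08 TPM, below every value of Meis1.

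Pou3f3 and Emx2 were at or near 0 in the dissected tissue. Pou3f3 was at 0.224, 0.0690 and 0.0547 TPM in the low-Msx1 libraries of litters 1, 2 and 3, and at 0.139, 0.108 and 0.0958 TPM in their high-Msx1 littermates. Emx2 was at 0.349, 0.0730 and 0.469 TPM in the low-Msx1 libraries of litters 1, 2 and 3, and listed at 0, 0.520 and 0.658 TPM in their high-Msx1 littermates. The groups overlap for both genes, and neither passed the filter of at least 1 TPM in at least 3 libraries. Base means in the authors' deposited table, which are counts scaled for library size and averaged over libraries, were 6.35 for Pou3f3 and 6.14 for Emx2, against 2919 for Meis2. At such levels no difference between littermates was detectable for Pou3f3 or Emx2, for which the authors' deposited table gave changes of -0.23 ± 1.33 and -0.03 ± 1.57 (log2, with the deposited standard errors). The distal genes Hand2 and Dlx5, by contrast, were between 204 and 265.6 TPM in each library. The name proximal refers to the group in which the 8 genes were placed, and not to the tissue sampled. That tissue had high levels of distal genes and hardly any Pou3f3 or Emx2. The other factors were expressed there at the levels given above.

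**Figure D1:**
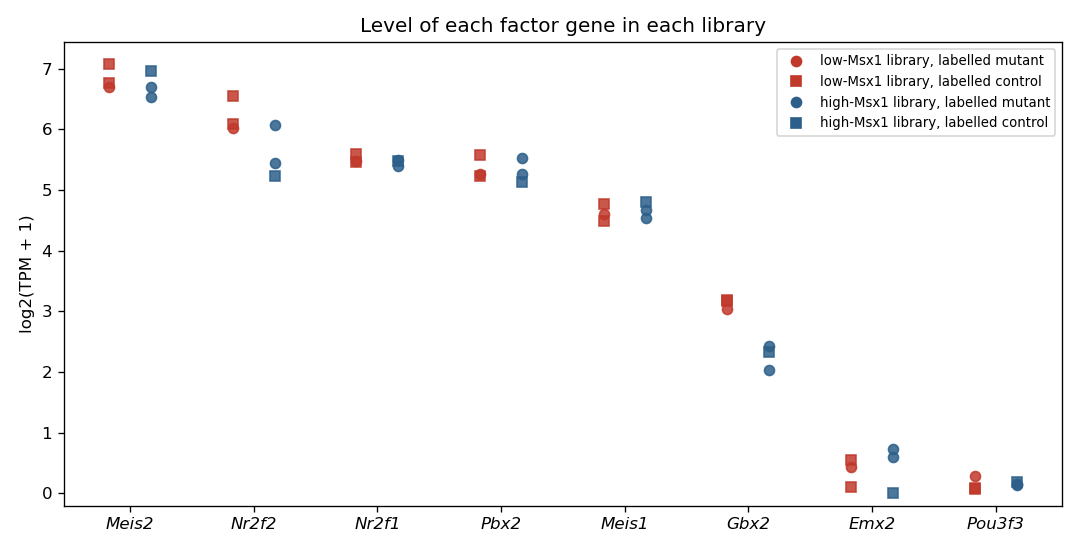
Level of each of the 8 factor genes, as log2(TPM + 1), in each of the 6 libraries; red points are low-Msx1 and blue points high-Msx1 libraries, circles are labelled mutant and squares labelled control. Meis2 is highest at 91.6 to 134 TPM, Gbx2 separates the red from the blue points, and Emx2 and Pou3f3 lie at the bottom.

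Gbx2 (ENSMUSG00000034486, chromosome 1, 89927956 to 89931179, GRCm38) was higher in the low-Msx1 library of every litter. It was at 7.22, 8.08 and 7.99 TPM in the low-Msx1 libraries of litters 1, 2 and 3, labelled mutant, control and control, and at 4.02, 3.08 and 4.39 TPM in their high-Msx1 littermates. The low-Msx1 libraries lie close together and all above the high-Msx1 libraries, with no overlap. Within litters the level was 1.80-fold, 2.62-fold and 1.82-fold higher in the low-Msx1 library, or 0.71, 1.15 and 0.74 on the log2(TPM + 1) scale, which understates the change of a gene at this level. Of the 12152 genes that passed the filter, 4.36% lay above their high-Msx1 libraries without overlap, so Gbx2 is 1 of 530 such genes. Bulk tissue cannot tell more RNA per cell from more cells that express a gene, here and below. In the authors' deposited table, where Msx1 is negative and a positive value therefore means a higher level where Msx1 is lower, the change of Gbx2 was 1.04 ± 0.43 (log2, with the deposited standard error), with an unadjusted p of 0.0160 and an adjusted p of 1.00. Gbx2 did not pass the threshold of 0.05, which 14 genes (0.0961% of those with an adjusted p) did in the authors' deposited table.

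Nr2f2 (ENSMUSG00000030551, chromosome 7, 70351944 to 70366735, GRCm38) was also higher in the low-Msx1 library of every litter, by a wide margin in litters 1 and 3 and by almost nothing in litter 2. It was at 64.0, 67.1 and 92.1 TPM in the low-Msx1 libraries of litters 1, 2 and 3, and at 36.5, 66.3 and 42.6 TPM in their high-Msx1 littermates. The groups overlap, since the high-Msx1 library of litter 2 lies above the low-Msx1 library of litter 1. The within-litter folds were 1.76, 1.01 and 2.16. The authors' deposited table gave Nr2f2 a log2 change of 0.65 ± 0.19 (unadjusted p = 0.000659, adjusted p = 0.369), the smallest p of the 8 factors. Gbx2 and Nr2f2 were the 2 of 8 factors with a positive change at an unadjusted p under 0.05 in the authors' deposited table, against 0.875% of all its genes with a p. The authors' comparison comes from the same series, and the factors were chosen with earlier results known, so it is no independent support. Nr2f2 is known as a gene of venous endothelium, and the 9 endothelial markers summed to 118, 119.6 and 130 TPM in the low-Msx1 libraries of litters 1, 2 and 3, and to 121.7, 115 and 125.0 TPM in their high-Msx1 littermates. Those sums overlap between the groups. Of the 9 markers, 1 (Cldn5) was higher in the low-Msx1 library of each litter, without overlap, and 3 were lower in each. Over all 12152 genes, 10.81% were higher and 11.9% lower in each litter, and 4.36% lay above without overlap. The high-Msx1 library of litter 1, which had the lowest Nr2f2 level, also had the highest share of listed TPM in mitochondrial genes, at 8.03% against 6.02% to 6.51% in the 5 others. The part of endothelial cells and of that library's mitochondrial share in the Nr2f2 values was not tested.

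The upstream sequences of the 2 factors that were higher in the low-Msx1 library of each litter are shown, to display the stretch next to the start where a homeodomain protein such as Msx1 could be looked for. They are the 250 bases before the RefSeq transcript start (GRCm38.p6), read along the gene's strand, with TAAT and its reverse complement ATTA, the core letters that many homeodomain proteins recognise, in capitals. The Gbx2 sequence is chr1:89931177-89931426 and the Nr2f2 sequence chr7:70366747-70366996, both on the minus strand.
Gbx2: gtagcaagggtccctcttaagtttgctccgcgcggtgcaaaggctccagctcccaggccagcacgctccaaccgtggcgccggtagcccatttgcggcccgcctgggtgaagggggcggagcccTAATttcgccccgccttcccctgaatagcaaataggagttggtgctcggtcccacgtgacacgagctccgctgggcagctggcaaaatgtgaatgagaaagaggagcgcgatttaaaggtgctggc
Nr2f2: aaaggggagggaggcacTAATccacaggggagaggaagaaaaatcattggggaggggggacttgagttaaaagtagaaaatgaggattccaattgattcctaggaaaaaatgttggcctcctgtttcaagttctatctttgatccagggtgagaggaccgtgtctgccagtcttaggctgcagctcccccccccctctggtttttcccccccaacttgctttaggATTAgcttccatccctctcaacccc

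The core stands once in the Gbx2 sequence, 126 bases before the start, and at 233 and 25 bases before the start in the Nr2f2 sequence. Among 32851 upstream windows of the same length, 54.9% hold the core on either strand, and 6 of the 9 windows of the 8 factors do. The longer Msx-type letters TAATTG, which contain the core, or their reverse complement CAATTA occur in 7.17% of all windows and in 0 of the 9. The Meis and Tgif letters TGACAG (15.9% of all windows) and the nuclear receptor half-site AGGTCA (14.0% of all windows), both searched on either strand, also occur in 0 of the 9. These windows show only what letters they hold. Nr2f2 has further starts inside the gene, and its principal transcript in the GENCODE annotation begins at chromosome 7, base 70360593 (GRCm38). Gene-level TPM do not separate these starts.

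Nr2f1, the paralog of Nr2f2, did not keep a direction over the litters. It was at 43.6, 43.0 and 47.1 TPM in the low-Msx1 libraries of litters 1, 2 and 3, and at 43.3, 44.3 and 41.0 TPM in their high-Msx1 littermates. The direction differed between litters, and the authors' deposited table gave 0.06 ± 0.17 (unadjusted p = 0.744). The ratio of Nr2f2 to Nr2f1 within a library was 1.47, 1.56 and 1.96 in the low-Msx1 libraries of litters 1, 2 and 3, and 0.842, 1.5 and 1.04 in their high-Msx1 littermates. Nr2f2 thus exceeded Nr2f1 in 5 of the 6 libraries, the exception being the high-Msx1 library of litter 1, labelled control.

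Nr2f6, the more distant relative in the same receptor family and no member of the group of 8, separated the littermates without overlap. It was at 20.5, 15.9 and 21.1 TPM in the low-Msx1 libraries of litters 1, 2 and 3, and at 10.9, 11.6 and 12.4 TPM in their high-Msx1 littermates. In the authors' deposited table its change was 0.71 ± 0.34 (unadjusted p = 0.0373, adjusted p = 1.00). Ocel1, which overlaps Nr2f6 on the opposite strand, was at 2.86 to 3.95 TPM in the 6 libraries, and its groups overlap. The sum of Nr2f1, Nr2f2 and Nr2f6 was 128, 126.0 and 160.2 TPM in the low-Msx1 libraries, and 90.7, 122 and 95.9 TPM in their high-Msx1 littermates.

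**Figure D2:**
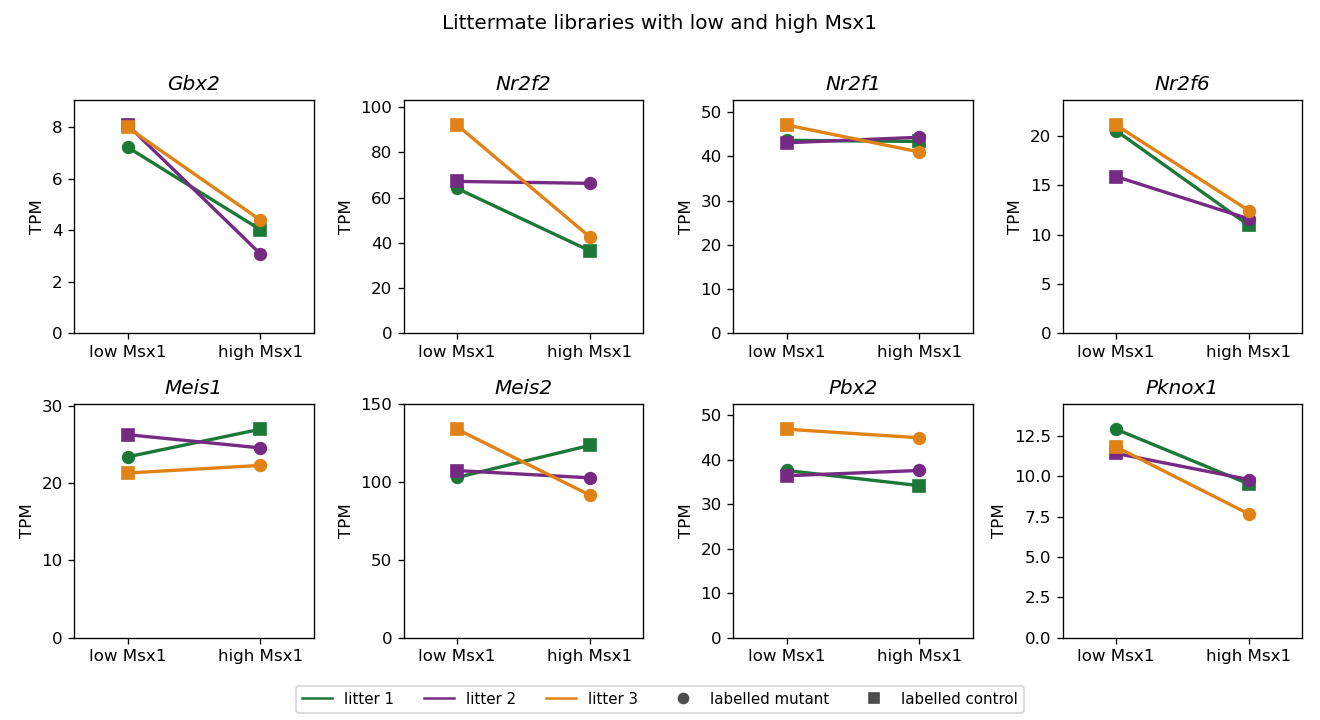
TPM of 6 of the 8 factors and of the relatives Nr2f6 and Pknox1 in the low-Msx1 library (left) and its high-Msx1 littermate (right); each line joins 1 litter, circles are labelled mutant and squares labelled control, and every axis starts at 0. The lines for Gbx2, Nr2f6 and Pknox1 all fall to the right, whereas those for Nr2f1, Meis1, Meis2 and Pbx2 cross.

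Meis2 differed between littermates in opposite directions. It was at 103, 107 and 134 TPM in the low-Msx1 libraries of litters 1, 2 and 3, and at 123.6, 102.7 and 91.6 TPM in their high-Msx1 littermates. The widest gap was in litter 3, where the low-Msx1 library was 1.46-fold higher, and the gap in litter 1 was the other way. Grouped by label, the same values were 103, 102.7 and 91.6 TPM in the libraries labelled mutant. They were 123.6, 107 and 134 TPM in the libraries labelled control. The labelled groups of Meis2 thus do not overlap, though the gap between 103 and 107 TPM is narrow. The mean was 99.1 ± 6.5 TPM in the libraries labelled mutant and 121.7 ± 13.4 TPM in the libraries labelled control (SD, n = 3 each), with a log2 difference of -0.29 ± 0.10 (SE; limma unadjusted p = 0.0211, adjusted p = 0.686). Of all genes, 4.82% had a negative difference between the labels at an unadjusted p under 0.05. The share of all genes whose labelled groups do not overlap was not determined. The authors' deposited table, read relative to Msx1 and not by these labels, gave Meis2 a log2 change of 0.12 ± 0.13 (unadjusted p = 0.379). Msx1 was at -5.19 in that table and at 1.41 between the labels, so these Meis2 changes do not estimate the same difference.

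Meis1 and Pbx2 did not separate the littermates either. Meis1 was at 23.4, 26.3 and 21.3 TPM in the low-Msx1 libraries of litters 1, 2 and 3, and at 27.0, 24.6 and 22.3 TPM in their high-Msx1 littermates. Pbx2 was at 37.5, 36.4 and 46.8 TPM in the low-Msx1 libraries, and at 34.1, 37.5 and 44.9 TPM in their high-Msx1 littermates. The groups overlap for both, and for Pbx2 the libraries of litter 3 were higher than the 4 others whatever their Msx1 level. The authors' deposited table gave -0.06 ± 0.15 for Meis1 (unadjusted p = 0.698) and 0.05 ± 0.16 for Pbx2 (unadjusted p = 0.747). Gpsm3, which overlaps Pbx2 on the same strand, did not exceed 2.97 TPM in any library. Meis2 exceeded Meis1 by 4.09-fold to 6.29-fold in every library.

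In all, 2 of the 6 factors that passed the filter, Gbx2 and Nr2f2, were higher in the low-Msx1 library of each litter, and 0 were lower in each. Over all 12152 genes, 10.81% were higher and 11.9% were lower in the low-Msx1 library of all 3 litters. The median within-litter log2 difference of the 6 factors was 0.07, 0.04 and 0.37 in litters 1, 2 and 3, and that of all genes was -0.09, 0.007 and 0.08. Grouped by label as deposited, none of the 6 factors passed limma's threshold, and neither did any of the 12152 genes (0.0%), of which 231 (1.9%) had a positive and 586 (4.82%) a negative difference at an unadjusted p under 0.05. Each labelled group holds both low-Msx1 and high-Msx1 libraries, and Msx1 itself was not called (1.41 ± 1.95 SE, limma adjusted p = 0.887). The label test thus does not compare low with high Msx1. Gbx2 averaged 4.90 ± 2.12 TPM in the libraries labelled mutant and 6.70 ± 2.32 TPM in the libraries labelled control (SD, n = 3 each; log2 difference -0.39 ± 0.31 SE, limma adjusted p = 0.789). Nr2f2 averaged 57.6 ± 13.1 TPM in the libraries labelled mutant and 65.2 ± 27.8 TPM in the libraries labelled control (SD, n = 3 each; log2 difference -0.11 ± 0.32 SE, limma adjusted p = 0.945). The adjusted p was 0.903 for Nr2f1, 0.892 for Meis1 and 0.952 for Pbx2 in the same limma test.

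**Figure D3:**
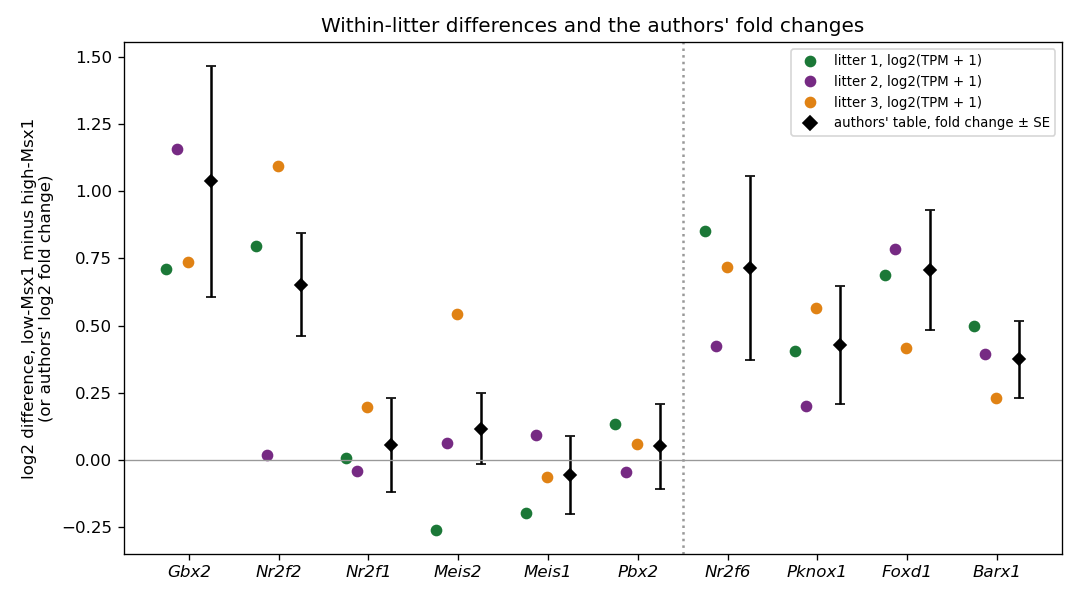
Within-litter difference in log2(TPM + 1), low-Msx1 minus high-Msx1 library, for each litter (coloured points), beside the log2 fold change ± standard error of the authors' deposited table (black diamonds), for 6 factors left of the dotted line and 4 related arch genes right of it. All coloured points of Gbx2 lie between 0.71 and 1.15, and the litter 2 point of Nr2f2 lies near 0.

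Of 8 other TALE genes, 1 was higher and 0 were lower in the low-Msx1 library of all 3 litters. Over all 12152 genes these shares were 10.81% and 11.9%. The higher TALE gene was Pknox1, which encodes a Pbx partner of the Prep family. Pknox1 was at 12.9, 11.4 and 11.8 TPM in the low-Msx1 libraries of litters 1, 2 and 3, and at 9.54, 9.81 and 7.67 TPM in their high-Msx1 littermates. The low-Msx1 libraries lie above the high-Msx1 libraries without overlap, as for 4.36% of all genes. The authors' deposited table gave Pknox1 0.43 ± 0.22 (unadjusted p = 0.0501, adjusted p = 1.00).

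The relatives of Pou3f3, Emx2 and Gbx2 were nearly silent. Pou3f1, Pou3f2, Pou3f4, Emx1 and Gbx1 did not reach 1 TPM in any library. Pou3f4 was nonetheless at 0.539, 0.677 and 0.467 TPM in the low-Msx1 libraries of litters 1, 2 and 3, and at 0.256, 0.278 and 0.297 TPM in their high-Msx1 littermates, without overlap. Of 5 noncoding neighbours of the factors looked up by symbol, Pantr1 and Emx2os among them, 0 had a row, so no levels are given. The annotation places Emx2os across the start of Emx2 and antisense or overlapping genes across Nr2f1, Nr2f2, Meis1, Pou3f3 and Gbx2. Whether the quantification used strand is not given in the sources used here, so reads of such partners cannot be told apart from those of the factors.

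Other proximal and maxillary genes lay on both sides. Of 12, 2 were higher and 5 were lower in the low-Msx1 library of all 3 litters. Over all 12152 genes these shares were 10.81% and 11.9%. Of the 12, 0 had an adjusted p under 0.05 in the authors' deposited table. The 2 higher genes were Foxd1 and Barx1, transcription factor genes of arch mesenchyme. Foxd1 was at 11.2, 11.5 and 9.66 TPM in the low-Msx1 libraries of litters 1, 2 and 3, and at 6.56, 6.24 and 6.99 TPM in their high-Msx1 littermates. Barx1 was at 273, 291.5 and 304.7 TPM in the low-Msx1 libraries, and at 193, 221.7 and 259.6 TPM in their high-Msx1 littermates. Neither gene's groups overlap, and 4.36% of all genes lay above their high-Msx1 libraries in this way. Dlx2, Eya1 and Jag1 were among the lower genes, of which Dlx2 was higher in litter 1 after median-of-ratios scaling (each library divided by its median ratio to the other libraries over genes). Eya1 was at 54.2, 61.9 and 65.4 TPM in the low-Msx1 libraries of litters 1, 2 and 3, and at 70.6, 64.2 and 66.7 TPM in their high-Msx1 littermates, and its groups overlap as deposited but not after median-of-ratios scaling. Per the authors' deposited table the list's median log2 change was -0.14, against 0.001 over every gene of that table with a fold change.

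Of 11 distal arch genes that passed the filter, 1 was higher and 4 were lower in the low-Msx1 library of all 3 litters. Over all 12152 genes these shares were 10.81% and 11.9%, which also applies to the retinoic acid genes below. The higher gene was Dlx3, which did not keep that direction in litter 2 under either other scaling. The 4 lower genes were Bmp4, Dlx5, Tbx2 and Alx4, of which Tbx2 was higher in litter 1 (by 0.01 on the log2 scale) after median-of-ratios scaling. Dlx5, which acts against proximal identity in the mandibular arch, was at 204, 248 and 218.6 TPM in the low-Msx1 libraries of litters 1, 2 and 3, and at 228, 265.6 and 251 TPM in their high-Msx1 littermates. Its groups overlap, and the authors' deposited table gave -0.15 ± 0.12 (unadjusted p = 0.215). Of 11 genes of retinoic acid handling and response that passed the filter, a pathway to which Nr2f and Meis genes are known to respond, 0 were higher and 1, Crabp1, was lower in the low-Msx1 library of all 3 litters. Crabp1 was at 365, 390.0 and 343 TPM in the low-Msx1 libraries, and at 366, 418 and 457 TPM in their high-Msx1 littermates, and its litter 1 difference changed sign after median-of-ratios scaling.

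Markers of other cell types that could bring in these factors were compared as well. The 8 arch mesenchyme genes summed to 600.3 to 614.6 TPM in the low-Msx1 libraries and 573 to 623 TPM in the high-Msx1 libraries. Epithelial markers summed to 95.0 to 109 TPM in the low-Msx1 libraries and 101 to 107 TPM in the high-Msx1 libraries, and neuronal markers to 15.5 to 16.2 TPM in the low-Msx1 libraries and 15.2 to 18.9 TPM in the high-Msx1 libraries. Glial and crest markers summed to 5.31 to 8.36 TPM in the low-Msx1 libraries and 6.16 to 6.29 TPM in the high-Msx1 libraries. Of 6 markers of the neural tube, in which Emx2, Gbx2 and Pou3f3 are also expressed, 5 were listed at 0 in each library and the other did not exceed 0.0773 TPM. The 5 Hox genes of more posterior arches did not reach 1 TPM in any library.

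**Figure D4:**
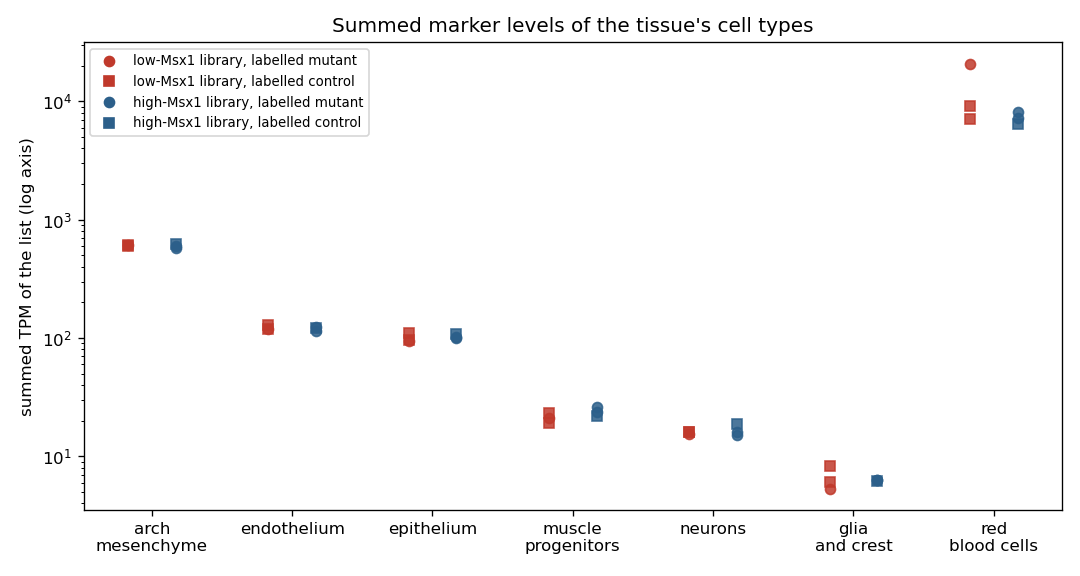
Summed TPM (log axis) of 7 marker lists in each library; red points are low-Msx1 and blue points high-Msx1 libraries, circles are labelled mutant and squares labelled control. The sums overlap between red and blue in each list, and the red blood cell list stands high in 1 library, the low-Msx1 library of litter 1.

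Although the summed levels overlap, 5 single markers that passed the filter lay above their high-Msx1 libraries without overlap, as 4.36% of all genes did. By list these were 2 of 8 arch mesenchyme, 1 of 9 endothelial, 1 of 4 muscle and 1 of 6 red blood cell markers. They were Tbx1, Cldn5, Hba-a1, Twist1 and Prrx2, of which Twist1 overlapped under both other scalings and Prrx2 when TPM were rescaled to the listed total. In the other direction, 2 of 8 arch mesenchyme, 1 of 8 epithelial and 1 of 4 muscle markers lay below their high-Msx1 libraries without overlap. The share of all genes that did so was not determined, so whether these counts are unusual is not known. Prrx1, Esrp1 and Chrna1 were among the markers that lay below without overlap under each scaling. The neuronal marker Stmn2, which did not pass the filter, lay above its high-Msx1 libraries without overlap. It was at 0.836, 0.856 and 1.59 TPM in the low-Msx1 libraries of litters 1, 2 and 3, and at 0.663, 0.611 and 0.757 TPM in their high-Msx1 littermates. Tbx1, in the list of 8 muscle progenitor markers and also a gene of arch epithelium and mesoderm, was at 3.25, 4.34 and 4.88 TPM in the low-Msx1 libraries of litters 1, 2 and 3, and at 2.15, 1.84 and 2.03 TPM in their high-Msx1 littermates. The whole muscle list summed to 19.3 to 23.2 TPM in the low-Msx1 libraries and 21.8 to 26.0 TPM in the high-Msx1 libraries, and its defining members Myf5 and Myod1 did not exceed 1.01 TPM. Cldn5, 1 of the 9 endothelial markers, was at 6.81, 7.93 and 5.62 TPM in the low-Msx1 libraries, and at 4.24, 4.71 and 4.77 TPM in their high-Msx1 littermates. Red blood cell markers summed to 20835 TPM in the low-Msx1 library of litter 1 and to 6405 to 9055 TPM in the 5 other libraries. The part of these cell types in the levels of the factors was not tested.

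The genes most like each factor over the 6 libraries were found by Pearson r of log2(TPM + 1). They were sought among 8700 genes with a mean of at least 5 TPM, leaving out predicted and clone names. Some of so many genes reach such a likeness with only 6 points. For Gbx2 the most alike were Mmgt2 (r = 0.976) and Cnot6l (r = 0.961), and for Nr2f2 Fance (r = 0.980) and Rpl18 (r = 0.974). Cnot6l, which encodes a deadenylase subunit, was at 32.3, 35.4 and 32.1 TPM in the low-Msx1 libraries of litters 1, 2 and 3, and at 22.7, 14.3 and 22.8 TPM in their high-Msx1 littermates. They were Rxrb and Wls for Nr2f1, Rab2b and Fem1b for Meis1, Fermt1 and Apc for Meis2, and Gnpat and Copg2 for Pbx2, with r of 0.981 to 0.999. Among the factors themselves, Nr2f1 was most like Meis2 (r = 0.81) and Nr2f2 (r = 0.76), Nr2f2 and Gbx2 had r = 0.58, and Meis1 and Pbx2 were opposed (r = -0.93). The points share library and litter, and each r is a description.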

How the data were processed

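Each library's file, as the authors deposited it, lists genes with a level in TPM. Per the submitters' processing notes the tools were Salmon 1.5.2 and DESeq2 and the build mm10. None of the sources used here gives their roles, the annotation release or the filters. The authors' deposited table holds, per the file headers, a base mean (a signal, the mean of scaled counts), a log2 fold change with its standard error, a Wald score, and unadjusted and adjusted p-values. Its direction is not stated and is read relative to Msx1. TPM keep no depth, so no counting interval is given.

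The labelled groups (mutant minus control) were compared on log2(TPM + 1) with limma 3.58.1 in R 4.3.3 (variance trend, robust moderation), over the 12152 genes that reached 1 TPM in 3 or more libraries, Benjamini-Hochberg adjusted with a threshold of 0.05. The script was tested on simulated data. An exact permutation test of 3 against 3 libraries cannot give a p below 0.1, so none was used. Low-Msx1 and high-Msx1 littermates were set side by side without a test. The litter pairing comes from the design text, which takes 1 embryo of each genotype from each litter; deviations of littermates from the label means correlated at -0.05, -0.03 and -0.03. The members and lists were chosen with earlier results of these data known. The rule for named genes took the 8 factors, Msx1, list members with 1 direction in all litters and a mean of at least 5 TPM (up to 4 per list), and the 2 genes most like each factor. Markers without overlap, Stmn2, Pou3f4, overlapping genes, Dlx3, Eya1 and Jag1 were named after their values were seen. Some genes of the lists are not reported here. Coordinates are from GENCODE M21 and upstream sequences from RefSeq (GRCm38.p6), where all 8 factors matched. Alternatives were another pseudocount, 2 filters, 2 scalings, a litter term and leaving out each library or litter.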

Additional observations from a re-analysis of the deposited data

How the results depend on the processing

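Between the labels, the count of factors called stayed at 0 under each setting run, and the counts over all genes stayed at 0 higher and 0 lower except when 1 library was left out, which gave 0 to 1 gene higher (without litter 1's library labelled control) and 0 to 1 lower (without litter 1's library labelled mutant). The replicate block (litter as a term) changed no call, with 0 genes higher, 0 lower and 0 factors, and for Meis2 a difference of -0.29 with an adjusted p of 0.765. Over the 13 settings Gbx2 lay between -0.68 and -0.16, Meis2 between -0.38 and -0.22 and Nr2f2 between -0.47 and 0.19, with adjusted p no lower than 0.354. Differences that were not called changed sign for 3 factors, and the cause was not tested. Nr2f1 was at 0.021 after median-of-ratios scaling, against -0.049 as deposited, and leaving out 1 library gave -0.47 to 0.19 for Nr2f2 and -0.049 to 0.17 for Pbx2. The median difference of all genes was -0.06 as deposited and 0.002 after median-of-ratios scaling, which turned the split at an unadjusted p under 0.05 to 410 higher and 305 lower. The 2 factors higher in the low-Msx1 library of each litter, Gbx2 and Nr2f2, were the same with a pseudocount of 0.1 and under both scalings, and the same holds for the direction of Nr2f6, Pknox1, Foxd1 and Barx1 under the scalings. Small within-litter differences changed sign, namely Pbx2 in litter 3 (0.06 as deposited, -0.04 after median-of-ratios scaling) and Nr2f1 in litter 1 (0.008 as deposited, -0.03 with TPM rescaled to the listed total). Leaving out 1 litter gave 2 to 4 factors higher and 0 to 1 lower in the remaining litters, with 4 higher (Nr2f1 and Pbx2 added) and Meis1 lower without litter 2. With only 2 litters to agree, 18.9% to 32.0% of all genes were higher and 19.5% to 31.4% lower. Depth is unknown in TPM, and Pou3f3 and Emx2 were too low for the filter.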
